A study of Rattus norvegicus with 12 samples.

Results

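Retinoic acid is made from vitamin A in the tissue that uses it, and 9 genes that import its precursor, make it, carry it, sense it and destroy it were followed here in the rat uterus. They are Stra6, Rdh10, Aldh1a1, Aldh1a2, Aldh1a3, Crabp2, Rarb, Cyp26a1 and Cyp26b1, taken by gene symbol from the 26312 genes of each deposited table, and all 9 were found once in every table. The uteri came from females aged 10 weeks whose ovaries had been removed and who had then rested for 2 weeks, in both the treated and the control animals. Progesterone was given under the skin at 40 µg per gram of body weight, controls received the sesame oil vehicle, and the whole uterus was taken 9 hours later. Animals were of the Holtzman Sprague Dawley (HSD) stock, which is outbred, or of the Brown Norway (BN) strain, which is inbred, giving the groups HSD-Oil, HSD-P4, BN-Oil and BN-P4 with 3 libraries of polyA RNA each. The labels number the libraries separately but do not say that each is a separate animal, so p-values measure the spread between these libraries.

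Retinol circulates bound to a plasma carrier and enters cells through the receptor Stra6. Rdh10 and related dehydrogenases oxidise it to retinal in a reversible step, and the Aldh1a enzymes oxidise retinal irreversibly to retinoic acid, which Crabp2 carries to the nuclear receptors of the Rar family. The Cyp26 enzymes hydroxylate retinoic acid and so end its action. In mouse, retinoic acid signalling is known from uterine stroma during decidualization, and Cyp26a1 is known from the luminal epithelium around implantation.

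Depth was 11763894 to 19033254 gene reads per library. Levels of a gene across libraries are in CPM, counts scaled to a common depth by TMM factors, and levels compared between genes are in RPKM, which also divides by exon length. A count of 0 allows up to 3 reads, equal to 0.155 to 0.261 CPM by library. A gene was called changed where edgeR's quasi-likelihood test, adjusted by Benjamini and Hochberg's method over the 15697 genes tested, gave a p below 0.05, and all 9 genes passed the filter on low counts. For the 9 genes each log2 change from the fit to all libraries is printed with its approximate standard error. Since the RNA is from whole tissue, fewer cells of a type and less RNA per cell cannot be told apart.

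Progesterone raised the import receptor Stra6, the carrier Crabp2 and the hydroxylase Cyp26a1 and lowered the synthetic enzyme Aldh1a3 in both strains. Rdh10 and Aldh1a2 rose in BN and were not called in HSD, and Cyp26b1 fell in HSD and was not called in BN. For none of these 3 was the difference between strains called. Aldh1a1 and Rarb were not called in either strain. Some of these calls were unstable over the 22 alternative settings of the analysis run per strain. In BN that of Crabp2 was lost in 13 and that of Cyp26a1 in 10, and in HSD that of Cyp26b1 in 8. In HSD 3 members rose and 2 fell, where 39.1% of all tested genes were called, 20.3% higher and 18.7% lower. In BN 5 rose and 1 fell, against 25.8% called, 14% higher and 11.8% lower. Averaged over strains 5 rose and 2 fell, against 48.4% called, 24.6% higher and 23.7% lower. The median log2 change of the 9 was 0.35 in HSD and 0.49 in BN, where that of all tested genes was -0.02 and -0.01.

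**Figure D1:**
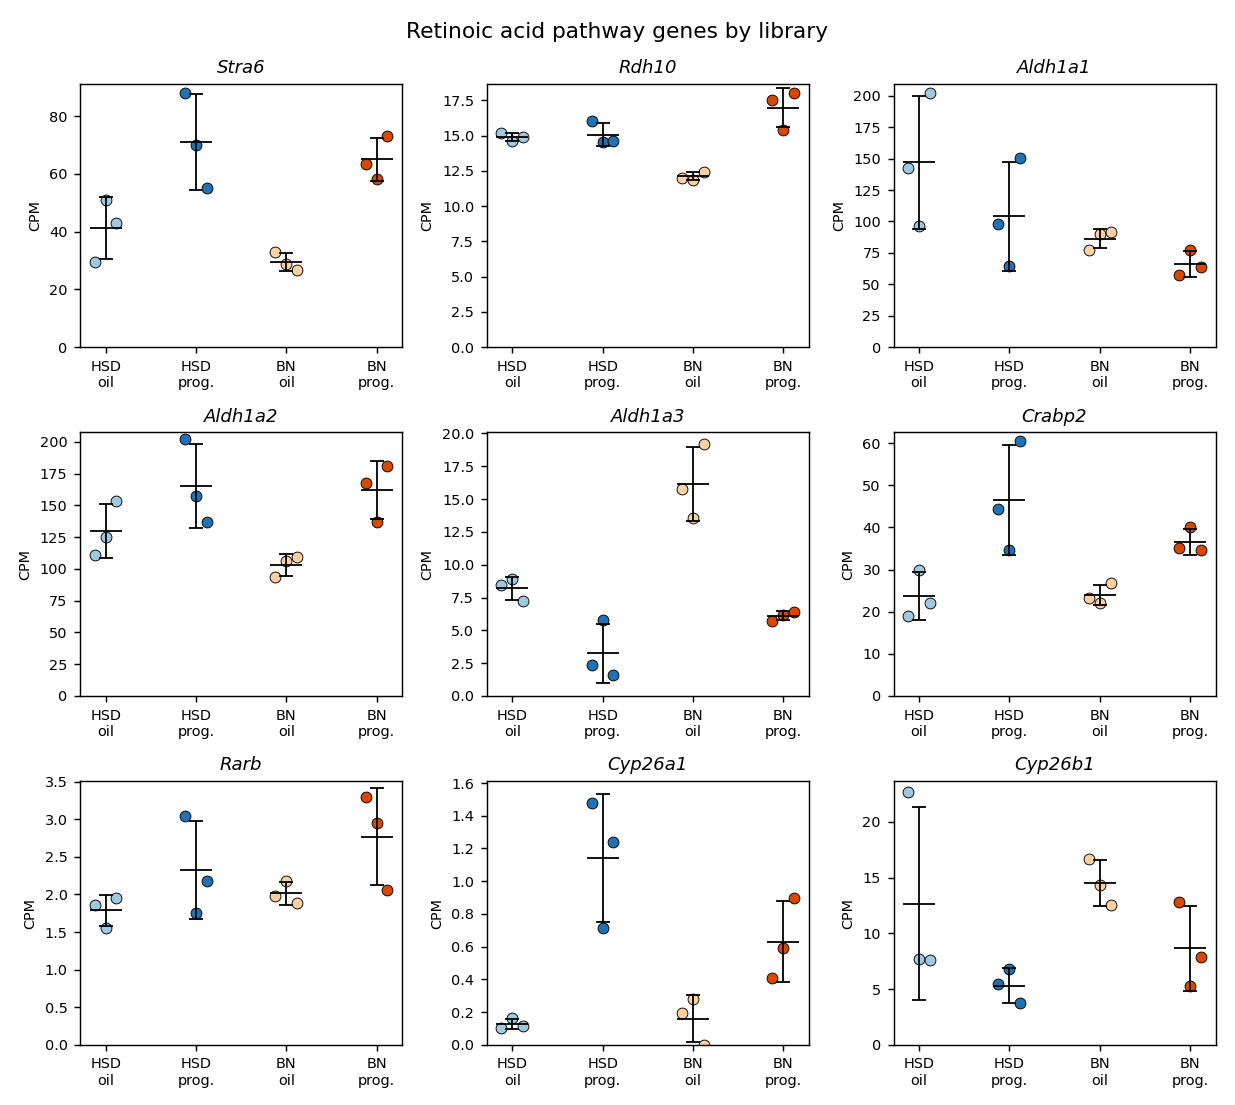
Level of each of the 9 genes in every library, in CPM on a linear axis from 0, by strain and treatment; points are libraries, the horizontal bar is the mean and the whiskers are ± 1 SD (n = 3). Cyp26a1 separates progesterone from oil in both strains from a starting level near 0. Aldh1a3 moves in the opposite direction, and Aldh1a1 overlaps between treatments in both strains.

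**Figure D2:**
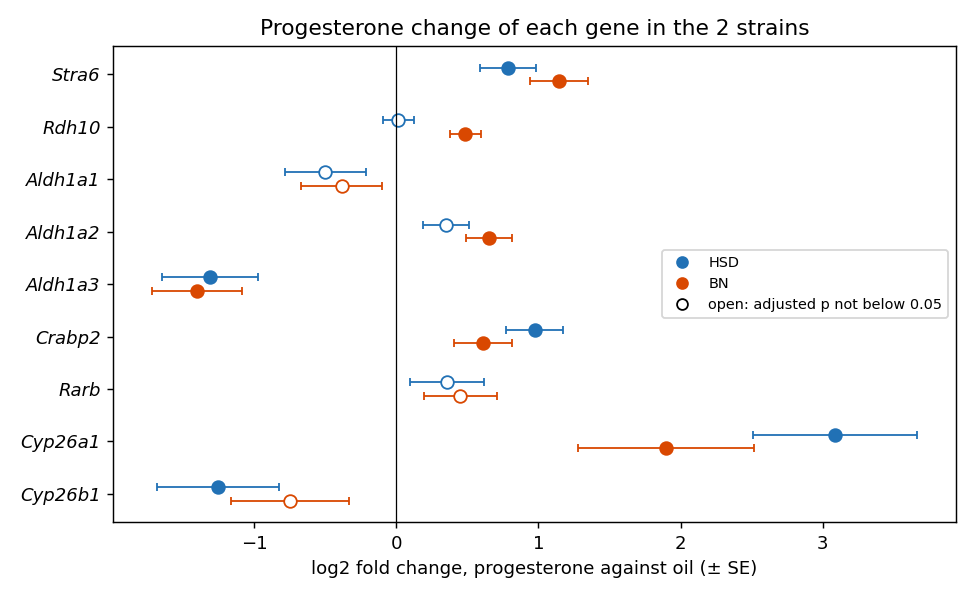
The log2 fold change, progesterone against oil, of each gene in HSD (blue) and BN (orange), with its approximate standard error; filled points have an adjusted p below 0.05 and open points do not. Cyp26a1 stands at 3.09 in HSD and 1.897 in BN, and Aldh1a3 at -1.31 and -1.40.

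The promoter sequences that go with these genes are shown first for the gene with the largest increase, Cyp26a1, and for Rarb, because these were the 2 of the 8 members with a RefSeq promoter entry (GRCr8) that held a direct repeat with 5 bases between its arms. That repeat, called DR5, is the layout known to bind retinoic acid receptors. It was searched on both strands with either arm being the consensus AGGTCA or a variant of it, where the allowed variants were AGTTCA and also GGTTCA as well as the form GGGTCA, over 250 bases before to 50 bases after the annotated start. The arms are in capitals, and the Cyp26a1 copy lies on the strand opposite to the gene.

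Cyp26a1 DR5: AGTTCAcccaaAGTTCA
Rarb DR5: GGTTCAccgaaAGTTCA

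These 2 copies are identical at 15 of 17 bases. A DR5 by this definition was in 0.382% of the 33469 RefSeq promoters searched, that is in 128. No member held the same arms spaced by 1 base (DR1, in 0.233% of promoters) or by 2 bases (DR2, in 0.170%). In context, the 250 bases before the Cyp26a1 start are shown with the DR5 in capitals as it reads on the gene's strand, with its first base 92 bases before the start, and then the 29 bases around the Rarb copy, which begins 24 bases after the start.

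Cyp26a1, chr1:244883572-244883821, plus strand: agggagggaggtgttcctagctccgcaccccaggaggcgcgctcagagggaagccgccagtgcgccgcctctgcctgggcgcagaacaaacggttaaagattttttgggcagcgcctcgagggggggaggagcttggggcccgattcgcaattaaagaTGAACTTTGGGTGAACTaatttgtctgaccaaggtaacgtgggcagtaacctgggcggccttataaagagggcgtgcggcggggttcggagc
Rarb, chr15:11336410-11336438, plus strand: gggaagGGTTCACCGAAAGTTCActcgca

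The progesterone receptor is known to bind an inverted repeat of the arm AGAACA spaced by 3 bases. The full repeat, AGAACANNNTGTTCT, was in no member's window and in 0.0149% of all promoters. The arm alone was in 20.7% of all promoters and in those of Cyp26a1, Crabp2 and Stra6, with 1, 1 and 3 copies. The 160 bases before the Stra6 start are shown because they hold its 3 copies, in capitals, the last on the opposite strand and read as TGTTCT.

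Stra6, chr8:67444597-67444756, plus strand: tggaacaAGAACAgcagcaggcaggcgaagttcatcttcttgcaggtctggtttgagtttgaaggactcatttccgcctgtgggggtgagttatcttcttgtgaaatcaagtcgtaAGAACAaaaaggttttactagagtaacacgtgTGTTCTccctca

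These matches describe letters in a window and are no measure of binding.

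Stra6, the membrane receptor that takes retinol from its plasma carrier into the cell, rose in both strains. It lies at positions 62701447 to 62720527 of chromosome 8, plus strand, in the build of the files, Rnor_5.0. In HSD-Oil the 3 libraries held 29.6, 50.9 and 43.0 CPM and in HSD-P4 88.2, 70.0 and 55.0 CPM. In BN-Oil they held 32.8, 28.7 and 26.6 CPM and in BN-P4 63.5, 58.3 and 73.2 CPM. Every progesterone library was above every oil library of its strain. The log2 change was 0.78 ± 0.20 in HSD (edgeR adjusted p = 0.00755), a 1.72-fold rise, and 1.15 ± 0.20 in BN (adjusted p = 0.00142), a 2.21-fold rise. The call held in both strains under each of the 22 alternative settings run per strain, left-out libraries included.

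Rdh10, the dehydrogenase that converts retinol to retinal in embryonic and adult tissues, was called higher in BN and was not called in HSD. It lies at 2593904 to 2620243 of chromosome 5, minus strand. Its level was 15.2, 14.6 and 14.9 CPM in HSD-Oil and 16.0, 14.6 and 14.6 CPM in HSD-P4. BN-Oil held 12.02, 11.9 and 12.5 CPM and BN-P4 17.5, 15.4 and 18.02 CPM. The HSD groups overlapped, and the BN groups did not. Progesterone minus oil gave a log2 change of 0.02 ± 0.11 in HSD (edgeR adjusted p = 0.921) and 0.49 ± 0.11 in BN (adjusted p = 0.00626), a 1.40-fold rise. The change in BN minus that in HSD was 0.47 ± 0.15 on the log2 scale, with an adjusted p of 0.482. The sign of the change in HSD, which was not called, turned in some alternative settings. Averaged over strains the change was 0.25 ± 0.08 (edgeR adjusted p = 0.0165), which is one of the averaged calls above. That averaged call was lost in 4 of 21 alternatives. They were exon reads (edgeR adjusted p = 0.162), scaling by library size alone (edgeR, 0.0833) and limma at either pseudocount (0.346 and 0.341).

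Of the 3 Aldh1a enzymes that make retinoic acid from retinal, Aldh1a2 rose, Aldh1a3 fell, and Aldh1a1 was lower without a call. In mouse, Aldh1a2 is the main enzyme of the embryo and is known from uterine stroma. Aldh1a2 (chromosome 8, 75363285 to 75442554, minus strand) was at 110.9, 125 and 153 CPM in HSD-Oil and at 202, 157 and 137 CPM in HSD-P4. In BN-Oil it was at 93.4, 107 and 109.6 CPM and in BN-P4 at 168, 137 and 181 CPM. The HSD groups overlapped through 1 library on each side, and the BN groups were separate. The log2 change was 0.35 ± 0.16 in HSD (edgeR adjusted p = 0.104) and 0.65 ± 0.16 in BN (adjusted p = 0.0109), a 1.57-fold rise in BN. Averaged over strains it was 0.50 ± 0.11 (adjusted p = 0.00294). In HSD it was called when HSD-Oil replicate 3 (log2 change 0.49, adjusted p = 0.0482) or HSD-P4 replicate 3 (0.47, adjusted p = 0.0334) was left out.

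Aldh1a3 (chromosome 1, 128382914 to 128415160, minus strand) is known in mouse mainly from epithelia. It was at 8.46, 8.91 and 7.21 CPM in HSD-Oil and at 2.35, 5.77 and 1.59 CPM in HSD-P4. Under oil in BN it was at 15.8, 13.6 and 19.2 CPM and in BN-P4 at 5.73, 6.17 and 6.43 CPM. All progesterone libraries were below all oil libraries of their strain, and HSD-P4 replicate 2 was the highest of its group. On the log2 scale the change was -1.31 ± 0.34 in HSD (edgeR adjusted p = 0.00838), a level 2.48-fold lower. In BN it was -1.40 ± 0.32 (adjusted p = 0.0065), a level 2.64-fold lower, a call lost only with limma on log2(RPKM + 0.1) (adjusted p = 0.0841). About as many of its reads fell in introns as in exons, with 48.9% in introns over all libraries.

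HSD-P4 replicate 2 also stood apart in genes of squamous epithelium. The 5 markers found for cervix or vagina summed to 28.0 CPM there and to between 0.703 and 2.99 CPM in the 11 other libraries. Without this library the Aldh1a3 change in HSD was -2.09 (edgeR adjusted p = 3.51e-05). The part of those cells in the level of that library was not tested.

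Aldh1a1 (chromosome 1, 245521322 to 245562969, plus strand), which oxidises retinal and other aldehydes, was at 143, 96.6 and 202 CPM in HSD-Oil and at 97.8, 64.4 and 150.4 CPM in HSD-P4. In BN-Oil it was at 77.4, 90.01 and 91.8 CPM and in BN-P4 at 57.6, 77.5 and 63.7 CPM. The HSD groups overlapped widely, and in BN the highest progesterone library was just above the lowest oil library. The log2 change was -0.50 ± 0.28 in HSD (edgeR adjusted p = 0.186) and -0.38 ± 0.29 in BN (adjusted p = 0.36). Without HSD-P4 replicate 3 the HSD change was -0.86 (adjusted p = 0.032). With the 6 BN libraries fitted alone, the BN change had an adjusted p of 0.0218.

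On average, introns gave a smaller share of Aldh1a1 reads under progesterone than under oil in both strains. Introns gave 5.32%, 8.38% and 9.09% of its gene reads in HSD-Oil and 3.64%, 3.58% and 5.37% in HSD-P4. In BN-Oil they gave 10.99%, 8.20% and 10.2% and in BN-P4 4.32%, 3.05% and 5.54%. The share was lower in each BN-P4 library than in any BN-Oil library, and in HSD the groups overlapped by a small margin. Averaged over strains the share was 4.44 percentage points lower under progesterone. This share was looked at because of the values in these libraries, so no p-value is given for the share itself.

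Of 12705 genes with at least 100 intron reads in all and 10 gene reads in each library, 16.3% in HSD and 9.41% in BN had an intron share lower in every progesterone library than in any oil library, and the median change was -0.705 and 0.172 percentage points. In a fit of intron reads alone, added after the data were seen, Aldh1a1 changed by -1.22 in HSD (edgeR adjusted p = 0.045) and -1.59 in BN (adjusted p = 0.026) on the log2 scale. In the fit of exon reads it changed by -0.45 (adjusted p = 0.243) and -0.30 (adjusted p = 0.511). The adjusted p-values of the intron fit do not cover the choice of this gene and read class after the values were seen.

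Aldh1a7, a close relative of Aldh1a1 in rat and mouse, is no member and is described here only beside the Aldh1a genes. It lies 2284991 bases from Aldh1a1 on chromosome 1 (247847960 to 247887886, minus strand), and only 55.3% of its reads were placed uniquely, so its level is uncertain. HSD-Oil held 1224, 1145 and 811 reads, HSD-P4 1, 170 and 1, BN-Oil 0, 1 and 1, and BN-P4 none. The HSD-Oil libraries thus stood above all 9 others, and HSD-P4 replicate 2 above the remaining 8. HSD-Oil against BN-Oil was 1196-fold by summed reads, with a counting interval of 331 to 9883, and the strain comparison under oil was called (edgeR adjusted p = 0.00794). The HSD progesterone change of -4.06 on the log2 scale (adjusted p = 0.0079) became -9.51 without HSD-P4 replicate 2. BN-P4 gave no read, and HSD-Oil was at least 976-fold above the floor of 3 reads over that group. By contrast 99.8% of Aldh1a1 reads were placed uniquely.

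**Figure D3:**
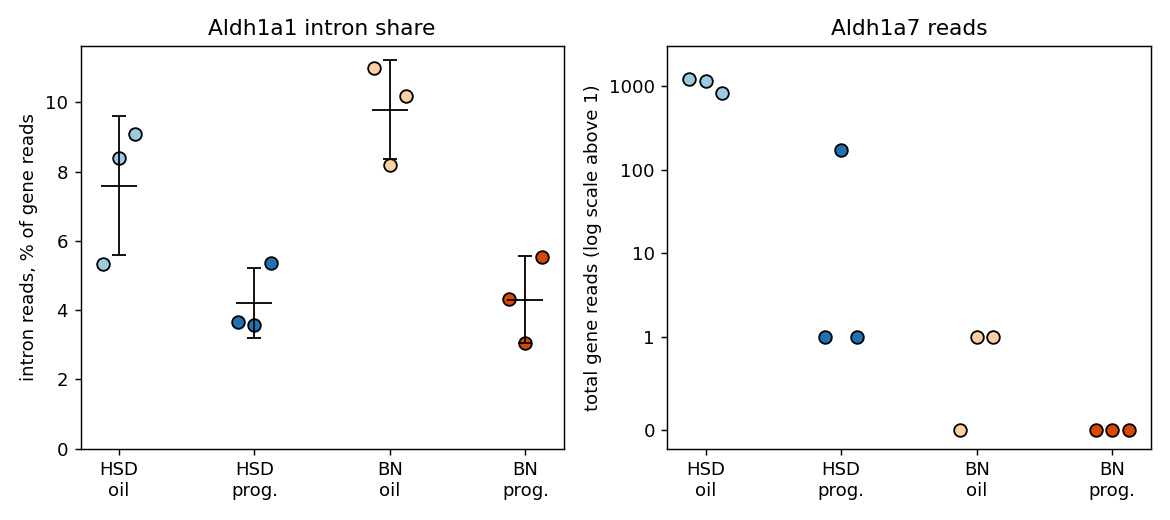
Left, percent of Aldh1a1 gene reads that fell in introns, by library, with mean and ± 1 SD (n = 3); right, Aldh1a7 gene reads by library on an axis that is logarithmic above 1. The 3 BN-P4 libraries lie between 3.05% and 5.54% on the left, below all BN-Oil libraries, and on the right the 3 HSD-Oil libraries, from 811 reads upward, stand above all others.

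In RPKM, Aldh1a1 gave 57.1% ± 6.45 of the summed Aldh1a1, Aldh1a2 and Aldh1a3 level in HSD-Oil and 43.3% ± 14.1 in HSD-P4 (SD, n = 3). In BN it gave 48.3% ± 2.11 under oil and 34.3% ± 7.46 under progesterone (SD, n = 3). Aldh1a2 took the larger share in all BN-P4 libraries, between 54.5% and 67.5%, where in BN-Oil it held 44.0% to 46.2%. Aldh1a3 was the least abundant of the 3, at most 8.02% of the sum in any library. The sum itself was 115 ± 30.2 RPKM in HSD-Oil, 102 ± 14.1 in HSD-P4, 79.3 ± 7.02 in BN-Oil and 89.3 ± 5.87 in BN-P4 (SD, n = 3). The summed level of the 3 enzymes therefore overlapped between treatments in both strains while its make-up in BN did not.

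**Figure D4:**
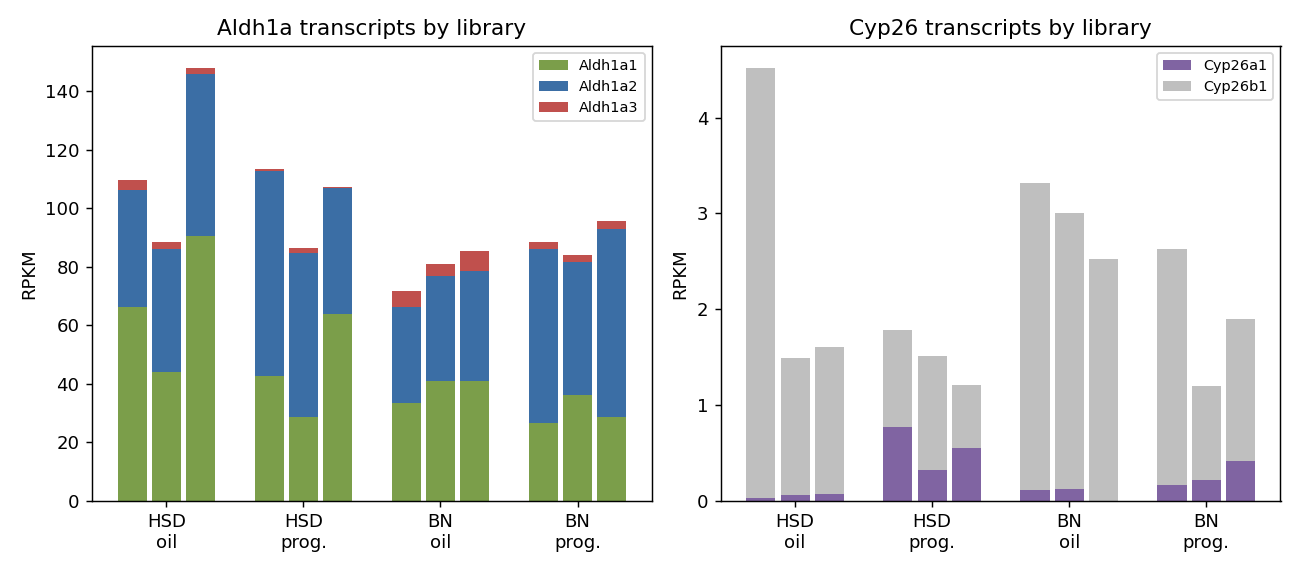
Stacked bars of RPKM for the Aldh1a genes (left) and the Cyp26 genes (right), 1 bar per library, 3 per group, from 0. Aldh1a3 is a thin part of every left bar. Cyp26a1 is at most 0.121 RPKM in the 6 oil libraries and 0.161 to 0.774 RPKM in the 6 progesterone libraries.

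Crabp2, the cytoplasmic protein that delivers retinoic acid to its nuclear receptors, rose in both strains. It lies on chromosome 2 at 206725433 to 206729806, plus strand. It was at 18.9, 29.9 and 22.1 CPM in HSD-Oil and at 44.3, 34.6 and 60.4 CPM in HSD-P4. Under oil in BN it was at 23.2, 21.9 and 26.7 CPM and in BN-P4 at 35.0, 40.1 and 34.5 CPM. No progesterone library overlapped the oil libraries of its strain. Its log2 change came to 0.98 ± 0.20 in HSD (edgeR adjusted p = 0.00217), a 1.97-fold rise, and 0.61 ± 0.20 in BN (adjusted p = 0.0418), a 1.53-fold rise. The BN call was close to the threshold and was lost in 13 of 22 alternatives, with log2 changes of 0.42 to 0.69 over all of them. Among left-out libraries, it was lost without HSD-Oil replicate 3 (adjusted p = 0.054), HSD-P4 replicate 1 (0.0503), BN-Oil replicate 1 (0.108), 2 (0.125) or 3 (0.0635), and BN-P4 replicate 1 (0.0788), 2 (0.126) or 3 (0.0733) in edgeR. Of its reads 82.0% were placed uniquely, the lowest share among the 9 genes.

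Rarb, a nuclear receptor for retinoic acid whose own gene is a textbook target of the hormone, was low throughout. It spans 13963828 to 14306790 of chromosome 15, plus strand, and 54.7% of its reads were in introns. It was at 1.86, 1.56 and 1.96 CPM in HSD-Oil and at 3.04, 1.76 and 2.18 CPM in HSD-P4. In BN-Oil it was at 1.98, 2.18 and 1.88 CPM and in BN-P4 at 3.30, 2.95 and 2.06 CPM. In each strain the groups overlapped through 1 progesterone library. The log2 change was 0.36 ± 0.26 in HSD (edgeR adjusted p = 0.303) and 0.45 ± 0.26 in BN (adjusted p = 0.224). Averaged over strains it was 0.40 ± 0.18 (adjusted p = 0.0867).

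Cyp26a1, the hydroxylase best known for clearing retinoic acid, had the largest fold change and the lowest level of the 9 under oil. It lies on chromosome 1 at 263865215 to 263869103, plus strand. The libraries held 2, 3 and 2 reads in HSD-Oil and 17, 13 and 21 in HSD-P4, which is 0.103, 0.161 and 0.112 CPM against 1.48, 0.715 and 1.24 CPM. In BN-Oil they held 3, 4 and 0 reads and in BN-P4 7, 9 and 17, which is 0.192, 0.281 and 0 CPM against 0.405, 0.590 and 0.896 CPM. Every progesterone library was above every oil library of its strain, and most oil libraries were at or under the floor of 3 reads.

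By summed reads scaled for depth, the ratio for Cyp26a1 was 8.73 in HSD, from 51 against 7 reads, with a 95% exact counting interval of 3.94 to 22.8. In BN it was 3.85, from 33 against 7 reads, with an interval of 1.68 to 10.3. Against oil, the log2 change was 3.09 ± 0.58 in HSD (edgeR adjusted p = 0.00115) and 1.897 ± 0.62 in BN (adjusted p = 0.0399). The BN call was lost in 10 of 22 alternatives, with log2 changes of 0.23 to 2.50 over all of them. Among left-out libraries, it was lost without HSD-Oil replicate 1 (edgeR adjusted p = 0.0501) or 3 (0.0521), BN-Oil replicate 1 (0.0878) or 3 (0.105), and BN-P4 replicate 2 (0.0715) or 3 (0.145). The HSD call was lost only with intron reads alone (adjusted p = 0.349), where few reads remain. The change in BN minus that in HSD was -1.19 ± 0.94 on the log2 scale, with an adjusted p of 0.866.

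Cyp26b1, the second retinoic acid hydroxylase, did not follow Cyp26a1. It lies on chromosome 4 at 180848038 to 180864857, minus strand. It was at 22.7, 7.73 and 7.60 CPM in HSD-Oil and at 5.48, 6.76 and 3.71 CPM in HSD-P4. Under oil in BN it was at 16.7, 14.3 and 12.5 CPM and in BN-P4 at 12.8, 5.31 and 7.85 CPM. HSD-Oil replicate 1 was far above the rest of its group, the HSD groups were separate, and in BN 1 progesterone library reached into the oil range. The log2 change was -1.25 ± 0.43 in HSD (edgeR adjusted p = 0.034) and -0.74 ± 0.41 in BN (adjusted p = 0.21). Without HSD-Oil replicate 1 the HSD change was -0.53 (adjusted p = 0.252), and the call was also lost without HSD-P4 replicate 1 (-1.28, adjusted p = 0.0776) or 3 (-1.04, adjusted p = 0.137), in 8 of 22 alternatives in all. Averaged over strains the change was -0.9995 ± 0.30 (adjusted p = 0.0141).

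Cyp26a1 made up 2.93% ± 1.97 of the summed Cyp26a1 and Cyp26b1 RPKM in HSD-Oil and 36.9% ± 13.4 in HSD-P4 (SD, n = 3). In BN it made up 2.42% ± 2.13 under oil and 15.3% ± 8.13 under progesterone (SD, n = 3). Cyp26b1 was thus the more abundant of the pair in every library, at no less than 54.2% of the sum. The sum of both was 2.54 ± 1.72 RPKM in HSD-Oil and 1.4996 ± 0.288 in HSD-P4, and 2.95 ± 0.402 and 1.91 ± 0.714 RPKM in BN (SD, n = 3).

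Across the 9 genes the order of RPKM under oil was Aldh1a1 first, Aldh1a2 second and Crabp2 next in both strains, with Rarb and Cyp26a1 last. In HSD-Oil Aldh1a1 averaged 67.0 RPKM, Aldh1a2 45.8, Crabp2 22.6, Stra6 9.52, Rdh10 8.66, Aldh1a3 2.63, Cyp26b1 2.49, Rarb 0.479 and Cyp26a1 0.0517. The neighbours that overlapped between libraries there were Aldh1a1 with Aldh1a2, Stra6 with Rdh10, and Aldh1a3 with Cyp26b1. In BN-Oil the averages were 38.4 for Aldh1a1, 35.6 for Aldh1a2, 20.7 for Crabp2, 6.99 for Rdh10, 6.32 for Stra6, 5.36 for Aldh1a3, 2.87 for Cyp26b1, 0.518 for Rarb and 0.0762 for Cyp26a1. Overlapping neighbours were Aldh1a1 with Aldh1a2, Rdh10 with Stra6, and Stra6 with Aldh1a3.

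Under progesterone Aldh1a2 was first in both strains, at 56.5 RPKM in HSD-P4 and 56.6 RPKM in BN-P4. In HSD-P4 the next were Crabp2 at 45.0 and Aldh1a1 at 45.0 RPKM, all 3 overlapping, then Stra6 at 17.2 and Rdh10 at 7.53. The last 4, Cyp26b1 at 0.9496, Aldh1a3 at 0.936, Cyp26a1 at 0.550 and Rarb at 0.521 RPKM, overlapped each with the next. In BN-P4 Aldh1a2 did not overlap with Crabp2 at 32.3 RPKM, which overlapped with Aldh1a1 at 30.4. Stra6 at 14.4 and Rdh10 at 9.57 RPKM were separate from their neighbours, and Aldh1a3 at 2.41, Cyp26b1 at 1.65, Rarb at 0.703 and Cyp26a1 at 0.263 overlapped each with the next.

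Between strains none of the 9 genes was called by edgeR. Under oil 0 were called, where 5.69% of tested genes were, 2.34% higher and 3.34% lower in BN, with 4 at an unadjusted p below 0.05, 1 by DESeq2 and none by limma at either pseudocount. The most separate was Aldh1a3, at 16.2 ± 2.82 CPM in BN-Oil against 8.19 ± 0.879 in HSD-Oil (SD, n = 3), a log2 difference of 0.98 ± 0.31 in BN minus HSD (edgeR adjusted p = 0.0939). It was the one called by DESeq2, with an adjusted p of 0.032, and it was called by edgeR when the 6 oil libraries were fitted alone (0.00808), without HSD-P4 replicate 2 (0.00494) and without HSD-P4 replicate 3 (0.0183). On the same scale Aldh1a1 differed by -0.77 ± 0.28 (edgeR adjusted p = 0.156) and Rdh10 by -0.30 ± 0.11 (adjusted p = 0.157). Libraries did not overlap between strains under oil for 4 members, Aldh1a1, Aldh1a2 and Rdh10 with lower and Aldh1a3 with higher levels in BN, where 25.7% of tested genes did not overlap.

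Under progesterone 0 members were called between strains, where 5.73% of tested genes were, 2.43% higher and 3.31% lower in BN, with 2 at an unadjusted p below 0.05 and none by DESeq2 or limma. No member's libraries were separate between strains there, where 22.6% of tested genes were, 10.8% higher and 11.8% lower in BN. The mean of Aldh1a3 was higher in BN-P4 than in HSD-P4, by 0.89 ± 0.34 on the log2 scale (edgeR adjusted p = 0.15), and by 1.66 without HSD-P4 replicate 2 (adjusted p = 0.0014). For the strain difference of the progesterone change 0 members were called, where 0.051% of tested genes were, 0.0255% higher and 0.0255% lower. At an unadjusted edgeR p below 0.05 there was 1 member, Rdh10, and none was called by DESeq2 or limma. A call in 1 strain alone is therefore no sign that the strains differ. The 5 members whose libraries did not overlap between treatments in HSD stand against 44.7% of tested genes, the 3 higher against 22.8% and the 2 lower against 21.9%. In BN the 6 stand against 48.9%, the 5 higher against 25% and the 1 lower against 23.8%.

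Among other genes of retinoid metabolism and response, more fell than rose. Of 53 tested genes in 6 lists, 5 rose and 18 fell in HSD, and 4 rose and 12 fell in BN, with a median log2 change of -0.29 and -0.24. Of all tested genes 20.3% were called higher and 18.7% lower in HSD, and 14% and 11.8% in BN. Over the 21 alternatives other than intron reads, the genes that rose numbered 3 to 6 in HSD and 1 to 5 in BN, the lowest in BN being without BN-Oil replicate 3, and those that fell numbered 12 to 21 and 9 to 13. With intron reads alone 2 rose and 12 fell in HSD, and 2 rose and 8 fell in BN. Leaving out 1 HSD library in turn lost, at least once, the HSD calls of Rbp4, Lipe, Bcmo1, Rdh12, Adh1 and Ncoa1, with edgeR adjusted p up to 0.144, and each of the 6 HSD libraries lost at least 1 of them. In BN the calls of Adh1, Fabp5, Rarg, Meis1, Rarres1, Nrip1 and Rdh16 were lost in this way, with adjusted p up to 0.146, through each of the 6 BN libraries and, for Adh1, also HSD-Oil replicate 2. Over all 22 alternatives the HSD calls of Rbp4 held in 15, those of Lipe and Rdh12 in 16 each, and the BN call of Meis1 in 15. Bcmo1 was also called in HSD in 16, but with exon reads and with limma at either pseudocount it was called as a rise.

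Of 8 genes of uptake and storage, 1 rose and 3 fell in HSD and 0 rose and 3 fell in BN. Bcmo1, which cleaves beta-carotene to retinal, fell, with log2 changes of -0.83 ± 0.28 in HSD (edgeR adjusted p = 0.0351) and -1.75 ± 0.33 in BN (adjusted p = 0.00237), but this direction belongs to its intron reads. In the fit of exon reads alone Bcmo1 changed by 2.44 in HSD (edgeR adjusted p = 0.00296) and 0.65 in BN (adjusted p = 0.654), and in intron reads alone by -1.59 and -2.10. Of the other calls in these lists, only that of Adh1 in HSD changed sign under an alternative, at -0.07 with intron reads alone (adjusted p = 0.955). Scarb1, a lipoprotein receptor that also takes up carotenoids, fell in both strains (-0.77 and -0.96), and so did the lipase Lipe (-0.48 and -0.61). Rbp4, the plasma carrier that Stra6 recognises, rose by 0.95 in HSD (adjusted p = 0.0334) and had a change of 0.95 in BN (adjusted p = 0.0549).

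Of 15 genes that interconvert retinol and retinal, 2 rose and 6 fell in HSD and 2 rose and 3 fell in BN. Dhrs9, a dehydrogenase of the short-chain family that acts on retinol, was at 10.9 ± 2.24 CPM in HSD-Oil and 1.52 ± 0.449 in HSD-P4, and at 10.3 ± 9.68 and 1.64 ± 1.16 CPM in BN (SD, n = 3). It fell, with log2 changes of -2.85 ± 0.63 in HSD (edgeR adjusted p = 0.00345) and -2.61 ± 0.62 in BN (adjusted p = 0.00844). The BN-Oil libraries held 4.09, 21.4 and 5.32 CPM, and the BN change was -1.47 without the highest, replicate 2 (adjusted p = 0.0433), -3.27 without BN-P4 replicate 3, and not called with the 6 BN libraries fitted alone (adjusted p = 0.0732). Its relative Sdr16c5 fell as well, with changes of -2.27 ± 0.27 (adjusted p = 3.81e-05) and -1.63 ± 0.27 (adjusted p = 0.00104). Rdh16, also a retinol dehydrogenase, fell in both strains (-1.57 and -0.77), and Rdh12, which reduces retinal, fell in HSD (-1.26) and had a change of -0.74 in BN (adjusted p = 0.179). Rdh12 was low, at 0.822 ± 0.312 CPM in HSD-Oil and 0.326 ± 0.184 in HSD-P4 (SD, n = 3). Its lowest HSD-P4 library, replicate 1 at 0.174 CPM, was under the floor of 3 reads in that library, 0.261 CPM.

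In the same list Rdh13, a mitochondrial retinal reductase, averaged 16.2 ± 1.06 CPM in HSD-Oil and 34.0 ± 1.70 in HSD-P4, and 15.5 ± 1.66 CPM in BN-Oil and 29.6 ± 1.03 in BN-P4 (SD, n = 3). It rose in both strains, with edgeR adjusted p-values of 1.33e-05 and 9.13e-05. Adh1, an alcohol dehydrogenase that oxidises retinol, rose by 0.91 and 0.77 on the log2 scale (adjusted p = 0.0151 and 0.044), and its BN call held in 10 of 22 alternatives. Dhrs3 and Dhrs4 fell in HSD and were not called in BN. Dhrs3, which returns retinal to retinol and partners Rdh10 in mouse, was at 115 ± 31.4 CPM in HSD-Oil and between 65.4 and 69.0 CPM on average in the 3 other groups.

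Of 8 binding proteins and receptors, 1 rose and 3 fell in HSD and 1 rose and 2 fell in BN. Fabp5, a fatty acid binding protein that can carry retinoic acid to another nuclear receptor, rose by 1.44 ± 0.23 in HSD (edgeR adjusted p = 0.000407) and by 0.84 ± 0.22 in BN (adjusted p = 0.0141) on the log2 scale. The retinoic acid receptor Rarg fell in HSD and BN (-0.83 and -0.61), and so did its partner receptor Rxrb (-0.64 and -0.56), while Rara fell in HSD (-0.78) and had a change of -0.34 in BN (adjusted p = 0.247). These stand beside Crabp2, which rose, and Rarb, which was not called.

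Of 8 coregulators, 1 rose and 2 fell in HSD and 1 rose and 1 fell in BN. Nrip1, a ligand-dependent corepressor, rose by 0.55 and 0.41 on the log2 scale, the coactivator Ncoa2 fell in both (-0.76 and -0.40), and Ncoa1 fell in HSD (-0.33, edgeR adjusted p = 0.0139) and was not called in BN (-0.21, adjusted p = 0.12). Of 11 genes known from other tissues to respond to retinoic acid, none rose and 3 fell in each strain. The receptor tyrosine kinase gene RET fell, with log2 changes of -2.36 ± 0.36 in HSD (edgeR adjusted p = 0.000297) and -1.81 ± 0.37 in BN (adjusted p = 0.00357). Its level was low, at 1.99 ± 0.338 and 0.371 ± 0.0964 CPM in HSD and 1.43 ± 0.587 and 0.408 ± 0.103 CPM in BN, oil first (SD, n = 3). Hoxb4 and Meis2 fell in HSD (-0.61 and -0.51), and Rarres1 and Meis1 fell in BN (-0.64 and -0.28). In the list of other synthesis and clearance genes 3 were tested, of which Aldh1a7 fell in HSD and none was called in BN.

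**Figure D5:**
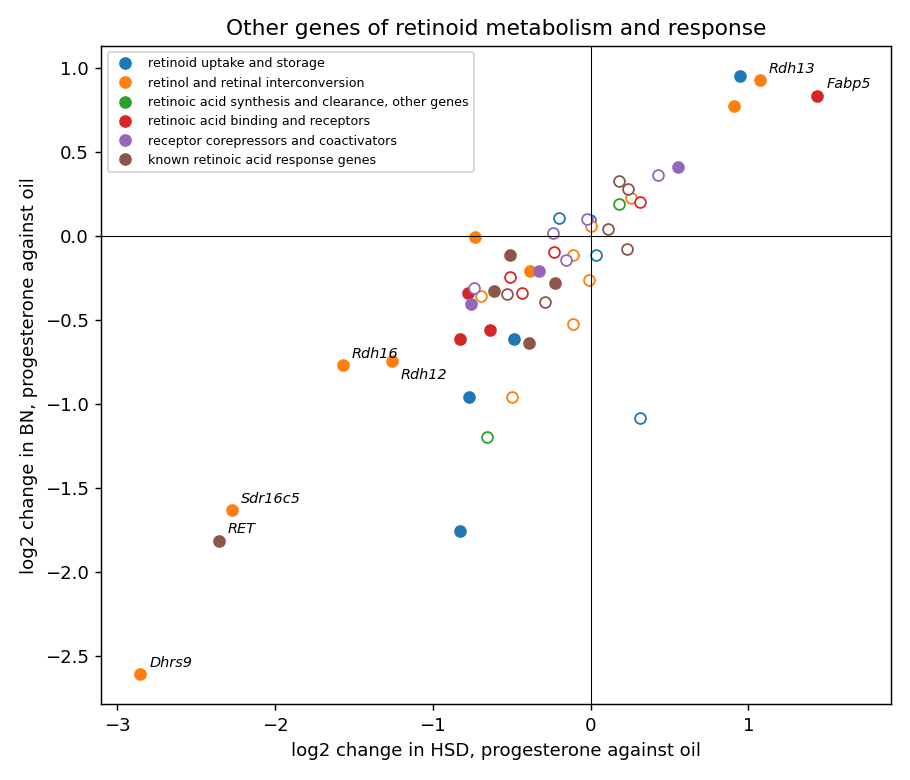
The log2 progesterone change in HSD (horizontal) and BN (vertical) of 52 other retinoid genes, coloured by list; filled points were called in at least 1 strain, and Aldh1a7 is left out because both BN groups are at the floor. Dhrs9, RET and Sdr16c5 lie at the lower left, and Fabp5 and Rdh13 at the upper right.

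For the members with the largest increase and decrease, the 5 tested genes with the most similar profile over the 12 libraries were taken by root mean square distance on log2(CPM + 0.1), a pseudocount chosen after the values were seen because 1 exceeds most Cyp26a1 levels. Nearest to Cyp26a1 were Eaf2 at 0.43, Il15ra at 0.43, Fkbp11 at 0.43, Tuba1c at 0.44 and the adipocyte hormone gene Adipoq at 0.45, where the median of all tested genes was 1.22. Nearest to Aldh1a3 were Unc79 at 0.37, Baiap3 at 0.37, Tspan17 at 0.39, Rasd2 at 0.39 and Gm3336 at 0.41, where the median was 1.01. With a pseudocount of 1 none of those 5 was among the nearest to Cyp26a1, and of the other 5 Baiap3 and Tspan17 remained.

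The tissue label fits its markers, since all 15 of uterine epithelium, 9 of stroma and 9 of smooth muscle were detected in every library. Epithelial markers summed to 1055 to 1535 CPM in HSD-Oil, 1188 to 1264 in HSD-P4, 927 to 983 in BN-Oil and 874 to 1111 in BN-P4; 2 rose and 4 fell in HSD, and 2 rose and 3 fell in BN. Of 9 stromal markers 0 rose and 1 fell in HSD and 1 rose and 1 fell in BN, and of 9 smooth muscle markers none was called in either. Of 8 macrophage markers 3 rose in HSD and none was called in BN, and of 8 endothelial markers 1 rose and 1 fell in HSD and none was called in BN. The 5 adipocyte markers summed to 5.53 to 12.02 CPM in HSD-Oil, 32.9 to 34.0 in HSD-P4, 5.98 to 9.00 in BN-Oil and 17.5 to 28.5 in BN-P4, with the leptin gene Lep at 0 in some libraries and Plin1 and Cidec at 0 in BN-Oil replicate 3, so that the sum was higher under progesterone, as were Cyp26a1, Stra6 and Crabp2. Of the 3 tested adipocyte markers 1 rose in HSD and 3 rose in BN. In HSD the sum was mostly Adipoq, at 5.78 ± 1.25 CPM under oil and 30.8 ± 1.25 under progesterone, while Cidec was at 0.283 and 0.364 CPM and Fabp4 at 1.87 and 1.98 (SD, n = 3). Of 4 oviduct and ciliated cell markers 3 fell in HSD and 2 in BN. Their sum was 62.4 to 69.4 CPM in HSD-Oil, 37.7 to 48.4 in HSD-P4, 41.9 to 44.8 in BN-Oil and 35.1 to 38.2 in BN-P4. Treatments did not overlap within either strain. Pax8 made up most of this sum. It was at 55.2 ± 1.88 and 38.0 ± 3.76 CPM in HSD and at 34.1 ± 2.73 and 31.1 ± 0.894 CPM in BN, oil first (SD, n = 3). Of 4 tested ovary markers 1 fell in HSD and none was called in BN, and the 8 found summed to 16.96 to 27.2 CPM over all libraries. The 7 mesothelial markers summed to 352 to 448 and 255 to 379 CPM in HSD and to 487 to 552 and 391 to 464 CPM in BN, oil first, and 1 of them fell in each strain. Aldh1a3 fell in both strains and Cyp26b1 in HSD, as did some markers of oviduct and ciliated cells, epithelium, stroma and mesothelium. Among epithelial markers, mean Muc1 was 37.2 and 3.27 CPM in HSD and 18.7 and 5.36 CPM in BN, oil first. Mean Krt7 went the other way, at 22.2 and 39.1 CPM in HSD and 12.2 and 20.2 CPM in BN. Of all tested genes 20.3% were called higher and 18.7% lower in HSD, and 14% and 11.8% in BN. The part of cell make-up in the changes of the members was not tested.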

How the data were processed

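PolyA RNA of rat uterus was made into 12 TruSeq libraries, per the labels' protocols. The authors deposited a table per library, aligned to Rnor_5.0 per the submitters' processing notes; for aligner, counting tool and strand setting nothing was given in the sources used here. The main unit is the deposited count of total gene reads, exonic plus intronic per the file headers. The deposited RPKM is, per the file headers, exon reads scaled by exon length and gene reads.

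Counts were tested with edgeR 4.0.16 in R 4.3.3 (filterByExpr, TMM, robust quasi-likelihood fit to 4 groups, 8 residual degrees of freedom, common biological coefficient of variation 0.157). The filter kept 15697 genes with 99.95% of reads. Standard errors are approximate, from dividing the absolute log2 change by the root of F. Alternatives used DESeq2 1.42.0, limma 3.58.1 on log2 RPKM and other scalings, filters, reads and left-out libraries. The edgeR steps were also run on simulated counts, for the HSD progesterone comparison only and with far fewer changed genes than were called here. The other comparisons were not checked in this way.

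Members, lists and tests were chosen with earlier results of these data known. All members are named; of other lists, genes called in a strain, at most 6 per list by averaged change, plus Dhrs3 and Dhrs4, chosen after their values were seen. Of listed symbols 62 were found. Sequences are from RefSeq GRCr8; Rdh10 had no entry. Intervals cover counting error only. The labels give index barcodes and no lane or date, so no batch was fitted. Replicates of a group differed beyond counting noise (chi-square per degree of freedom 4.52 to 78.3).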

Additional observations from a re-analysis of the deposited data

How the results depend on the processing

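Of the members' called changes, 0 turned direction under any alternative run, and 41 values without a call changed sign over the 6 comparisons; the direction of Bcmo1, no member, turned with exon reads and RPKM. Against 6 called members in BN, limma on log2(RPKM + 0.1) called 3; under oil between strains, against 0, DESeq2 called 1 and the fit of 6 libraries called 1. Leaving out 1 library in turn gave 4 to 6 called members in HSD, 4 to 6 in BN, 7 to 8 averaged over strains, 0 to 1 between strains under oil, 0 to 2 under progesterone and 0 to 0 for the strain difference. Over all genes, intron reads alone, chosen after seeing the data, called 3674 in HSD against 6133 and 2385 in BN against 4045. Under oil between strains, against 893, exon reads called 545, limma 489 with 0.1 and 554 with 1 added. Under progesterone, against 900, exon reads called 569, DESeq2 1519, limma 515 and 478, and 6 libraries 406. For the strain difference, against 8, DESeq2 called 119 and limma with 1 added 14. Leaving out 1 library gave 4789 to 6596 in HSD, 2651 (without BN-Oil replicate 3) to 5024 in BN, 6809 to 8053 averaged, 439 to 1323 under oil, 343 to 1454 under progesterone and 2 to 16 for the strain difference. The causes were not tested. Scaling by library size alone moved the median of all genes in HSD to a log2 change of -0.14. Precision for Cyp26a1 is limited by its 0 to 4 reads per oil library. No paired analysis was possible because the replicate numbers follow accession order and the labels join no libraries across groups.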
